A study of Mus musculus with 4 samples.

Results

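Genes from a pair of neuronal cell adhesion families, the leucine-rich neuronal (Lrrn) genes and the contactin-associated (Cntnap) genes, were followed in mouse ovaries that overexpress Sall1. The 9 genes, taken by name from the 34682 genes of the count table, were Lrrn1, Lrrn2, Lrrn3, Cntnap1, Cntnap2, Cntnap4, Cntnap5a, Cntnap5b and Cntnap5c. They were chosen by family name and with their mutant and wild-type counts already known, so the difference between the groups is described for them and is not offered as a test. The libraries were 2 from mutant ovaries and 2 from wild-type ovaries, all from embryos at E13.5, with replicate numbers 1 and 2 in each group. The mutants carry a BAC, a large genomic insert, in which the coding sequence of Sall1 stands under the promoter and regulatory elements of Wt1, a gene of gonadal somatic cells. The BAC was integrated by PiggyBac transposition into embryonic stem cells, and mice were derived from them by morula aggregation. The methods describe a female stem cell line from C57BL/6J blastocysts, and elsewhere name C57BL/6J or a hybrid of C57BL/6J and 129 as the background. The controls are described both as littermates and as wild-type CD1 gonads, and the columns of the wild-type libraries carry the label B6, so genotype and strain cannot be told apart here. The sources used here do not say how many embryos went into a library.

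Proteins of both families span the cell membrane once and bind partners on other cells. The Lrrn proteins carry leucine-rich repeats, an immunoglobulin domain and a fibronectin domain outside the cell, and are known from the developing nervous system. The Cntnap proteins, also called Caspr, belong to the neurexin superfamily and hold axons and glia together with contactins, at the junctions beside the nodes of Ranvier and at synapses. Whole fetal ovaries hold somatic, germ, vascular, blood and nerve-related cells.

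The sequences of the 3 Cntnap5 genes are shown first because they are close copies of each other, and the result for Cntnap5a depends on reads being assigned to the right copy. On NCBIM37 (mm9), Cntnap5a lies on the plus strand of chromosome 1 from 117581333 to 118478603, Cntnap5b on the plus strand of chromosome 1 from 101669342 to 102382519, and Cntnap5c on the plus strand of chromosome 17 from 57908993 to 58549765. Their coding sequences were 89.7% identical between Cntnap5a and Cntnap5b, 90.3% between Cntnap5a and Cntnap5c, and 90.0% identical between Cntnap5b and Cntnap5c. Pairs with at least 1 of Cntnap1, Cntnap2 and Cntnap4 were between 57.6% and 63.2% identical. Coding exons with the same length in all the copies were compared, leaving out very short ones and those little alike in sequence. Of the 21 exons compared, the shortest of 72 bases, the one most alike between Cntnap5a and Cntnap5b had 172 bases. It lies at chr1:118084841-118085012 in Cntnap5a, chr1:102060645-102060816 in Cntnap5b and chr17:58244020-58244191 in Cntnap5c. It is printed from the plus strand, with the bases that differ from Cntnap5a in capitals.
Cntnap5a: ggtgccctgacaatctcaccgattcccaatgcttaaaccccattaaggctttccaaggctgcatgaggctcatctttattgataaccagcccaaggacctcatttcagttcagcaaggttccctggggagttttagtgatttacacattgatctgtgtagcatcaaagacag
Cntnap5b: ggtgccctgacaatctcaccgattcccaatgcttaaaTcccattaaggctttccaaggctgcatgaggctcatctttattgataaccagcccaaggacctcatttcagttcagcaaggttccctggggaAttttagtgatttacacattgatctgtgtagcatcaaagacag
Cntnap5c: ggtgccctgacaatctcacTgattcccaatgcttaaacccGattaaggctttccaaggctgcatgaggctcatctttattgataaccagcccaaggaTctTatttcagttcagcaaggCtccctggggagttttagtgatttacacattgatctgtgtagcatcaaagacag
In this exon 170 of the 172 bases of Cntnap5b and 167 of those of Cntnap5c matched Cntnap5a. Of the exons compared, the one least alike between Cntnap5a and Cntnap5b had 219 bases and lies at chr1:118468029-118468247, chr1:102374935-102375153 and chr17:58534540-58534758, in the same order.
Cntnap5a: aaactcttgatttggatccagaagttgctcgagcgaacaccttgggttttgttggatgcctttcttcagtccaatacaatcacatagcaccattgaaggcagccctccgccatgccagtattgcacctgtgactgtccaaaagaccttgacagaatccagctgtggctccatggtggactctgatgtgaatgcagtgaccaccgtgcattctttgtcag
Cntnap5b: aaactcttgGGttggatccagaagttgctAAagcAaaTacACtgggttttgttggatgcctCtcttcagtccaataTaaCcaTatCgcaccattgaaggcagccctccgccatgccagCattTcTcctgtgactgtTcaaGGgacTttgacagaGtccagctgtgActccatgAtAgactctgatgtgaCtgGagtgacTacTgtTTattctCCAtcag
Cntnap5c: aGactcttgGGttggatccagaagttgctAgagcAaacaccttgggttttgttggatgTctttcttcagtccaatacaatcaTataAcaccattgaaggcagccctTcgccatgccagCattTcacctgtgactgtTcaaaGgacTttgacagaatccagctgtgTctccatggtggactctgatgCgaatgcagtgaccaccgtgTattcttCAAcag
Here 186 bases of Cntnap5b and 199 of Cntnap5c matched Cntnap5a. The longest stretch of identical bases between the transcripts was 91 bases for Cntnap5a and Cntnap5b and 86 bases for Cntnap5a and Cntnap5c. Of the 5602 stretches of 50 bases in the Cntnap5a transcript, 105 (1.87%) also occur in the transcript of another gene. The share was 1.83% for Cntnap5b and 2.33% for Cntnap5c. No such stretch was shared by Lrrn1, Lrrn2, Lrrn3, Cntnap2 or Cntnap4, and 10 of 5391 (0.185%) by Cntnap1. Pseudogenes and the read length of the libraries were not part of this count.

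For Sall1, the overexpressed gene, 1243 and 1445 reads were counted in mutant replicates 1 and 2, and 279 and 223 in the wild-type ones. The mean level of Wt1 itself was 317 CPM (counts per 1000000 of the normalized library size) with an SD of 34.3 in mutant ovaries, and 309 CPM with an SD of 0.0341 in wild-type ovaries (n = 2 each). Total counts lay between 11036313 and 17869840 per library, and a floor of 3 counts corresponded to between 0.170 and 0.272 CPM. Of the 9 members, 8 passed the filter on low counts and 1, Cntnap5c, did not. Pre-granulosa markers summed to between 629 and 634 CPM in mutant and between 588 and 611 CPM in wild-type ovaries. Germ cell markers summed to between 1657 and 1890 CPM and between 1706 and 1829 CPM, with none of either list at 0. Of 8 tested pre-granulosa markers, 4 (Foxl2, Fst, Irx3 and Irx5) were higher and 1 (Bmp2) lower in both mutant than in both wild-type libraries. For germ cells these numbers were 2 and 1 of 8, against 15.8% and 15.1% of all genes. The log2 fold change was 0.59 (standard error 0.12) for Foxl2 and -0.80 (standard error 0.13) for Bmp2. In edgeR's test 0 of either list passed, and the part of these cells in the levels was not tested.

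Lrrn1 was by far the most abundant member, and its mean level was 2.02 times as high in wild-type as in mutant ovaries. The gene lies on the plus strand of chromosome 6 from 107479779 to 107520204 (NCBIM37) and encodes a membrane protein known from cell sorting at boundaries in the embryonic brain. It had 87.5 and 79.0 CPM in the mutant libraries, from 964 and 1188 counts, against 183 and 154 CPM in the wild-type libraries, from 3145 and 2715 counts. Both mutant libraries lay below both wild-type libraries, and the lowest wild-type value was 1.76 times the highest mutant value. The libraries of one group differed by factors of 1.11 in the mutants and 1.19 in the wild type. The log2 fold change was -1.02 (standard error 0.12), and 423 of the 15442 genes tested (2.74%) had a larger one in either direction.

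The other Lrrn genes had far fewer counts, and their groups overlapped. Lrrn2, a relative first described as amplified in gliomas, had 9.07 and 6.91 CPM in mutant and 9.30 and 8.56 CPM in wild-type libraries. Its log2 fold change was -0.16 (standard error 0.22), and became 0.022 without mutant replicate 2. Lrrn3 lies on chromosome 12 inside the span of Immp2l on the opposite strand, with which it shares 0 exonic bases. It had 5.90 and 2.92 CPM in mutant and 8.31 and 4.59 CPM in wild-type libraries, so that the spread within each group was as large as the difference, which was -0.56 on the log2 scale (standard error 0.43). Its value depended on single libraries, and was -1.14 without mutant replicate 1, -0.13 without mutant replicate 2 and -0.076 without wild-type replicate 1. Summed over the 3 Lrrn genes, the level was 102 and 88.8 CPM in mutant against 200 and 167 CPM in wild-type libraries. Lrrn1 supplied between 85.4% and 92.1% of the Lrrn counts in each library.

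**Figure D1:**
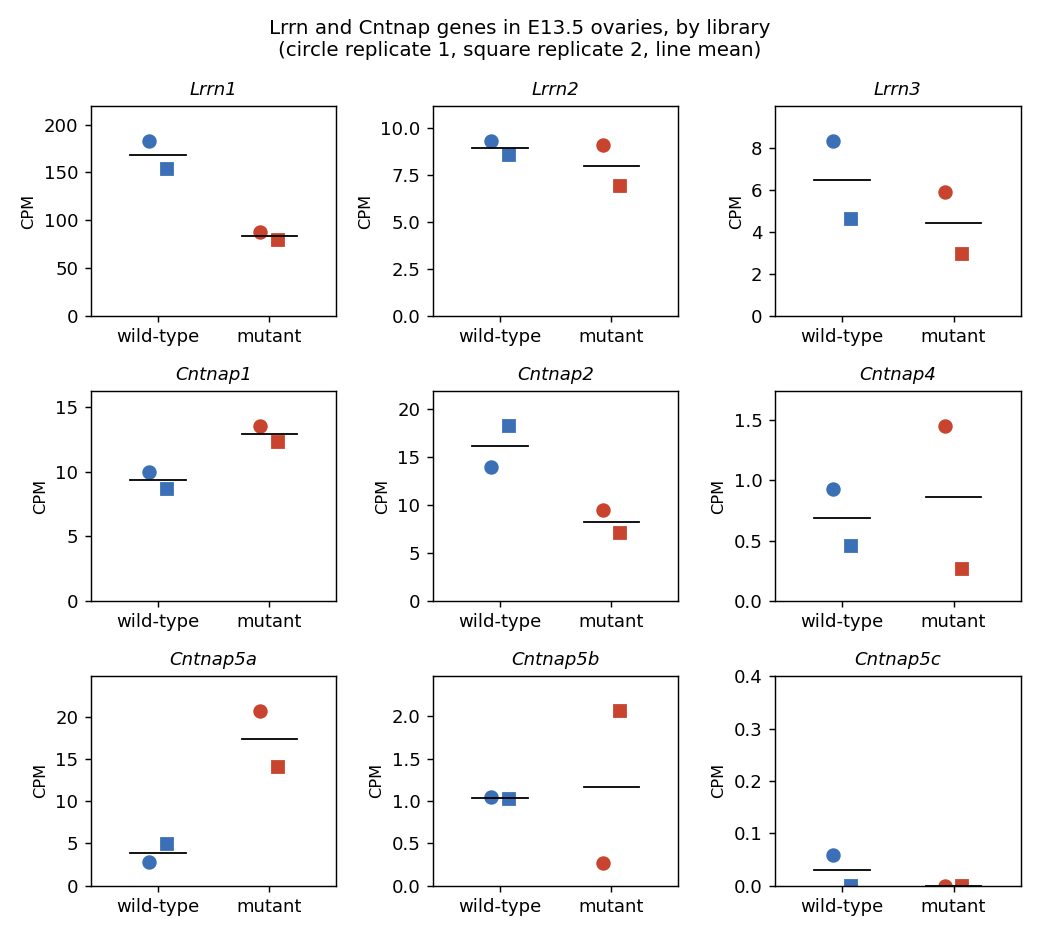
Level of each of the 9 genes in CPM (vertical axis, a separate scale for each gene) in the wild-type (blue) and mutant (red) libraries; circles are replicate 1, squares replicate 2 and lines the mean of 2 libraries. The groups are apart for Lrrn1 and Cntnap2 (lower in mutant) and for Cntnap1 and Cntnap5a (higher in mutant), and overlap for the other genes.

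Among the Cntnap genes the largest difference was that of Cntnap5a, which was higher in mutant ovaries. Caspr5, the protein family it belongs to, is expressed in the nervous system. Cntnap5a had 20.7 and 14.1 CPM in the mutant libraries, from 228 and 212 counts, against 2.79 and 4.99 CPM in the wild-type libraries, from 48 and 88 counts. The groups were apart, the lowest mutant value being 2.83 times the highest wild-type value, although libraries of one group differed by factors of 1.47 in the mutants and 1.79 in the wild type. The log2 fold change was 2.15 (standard error 0.33), and only 52 of the 15442 genes tested (0.337%) had a larger one in either direction. Leaving out wild-type replicate 1 gave 1.79 and leaving out wild-type replicate 2 gave 2.64.

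Cntnap5b and Cntnap5c, the copies of Cntnap5a, had few counts and groups that overlapped. For Cntnap5b the counts were 3 and 31 in mutant and 18 and 18 in wild-type ovaries, or 0.272, 2.06, 1.05 and 1.02 CPM. The mutant libraries thus lay on either side of the wild-type libraries, and their exact 95% Poisson intervals, from 0.619 to 8.77 and from 21.1 to 44.0 counts, did not overlap. The log2 fold change of 0.24 (standard error 0.76) turned to -1.89 without mutant replicate 2 and was 0.99 without mutant replicate 1. Cntnap5c had 1 count in wild-type replicate 1 and 0 in the other libraries, below the floor throughout, so no fold change is given. Of all counts on the 3 copies, Cntnap5a took 98.7% and 87.2% in mutant and 71.6% and 83.0% in wild-type ovaries, with exact (Clopper-Pearson) 95% intervals that overlapped between mutant replicate 2 (82.4% to 91.2%) and wild-type replicate 2 (74.5% to 89.6%). Summed over the copies, which needs no assignment of reads between them, the level was 21.0 and 16.2 CPM in mutant against 3.89 and 6.01 CPM in wild-type libraries, and the groups were again apart.

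Cntnap2, which encodes Caspr2, known for gathering potassium channels along myelinated axons, was lower in mutant ovaries. It spans 2241.3 kb on the plus strand of chromosome 6. Its levels were 9.44 and 7.05 CPM in mutant and 14.0 and 18.2 CPM in wild-type libraries, and both mutant libraries lay below both wild-type libraries. The gap was narrower than for Lrrn1, since the lowest wild-type value was 1.48 times the highest mutant value. The log2 fold change was -0.98 (standard error 0.23) and lay between -1.196 and -0.76 when each library was left out.

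Cntnap1 encodes Caspr, the partner of contactin at the paranodal junctions of myelinated axons. It had 149 and 185 counts in mutant and 172 and 153 counts in wild-type libraries, or mean levels of 12.9 ± 0.865 and 9.33 ± 0.938 CPM (SD, n = 2). On the CPM scale the mutant libraries were the higher ones, by a factor of 1.23 between the nearest values, and the log2 fold change was 0.47 (standard error 0.18). Of its exonic bases, 233 (3.97%) are shared with Plekhh3 on the opposite strand, and whether the counting kept strands apart is not stated. Cntnap4, which encodes Caspr4 of inhibitory synapses, was close to the limit of detection. Its counts were 16 and 4 in mutant and 16 and 8 in wild-type libraries. Its log2 fold change of 0.24 (standard error 0.81) changed sign with the library left out, being -1.35 without mutant replicate 1 and 1.06 without mutant replicate 2.

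**Figure D2:**
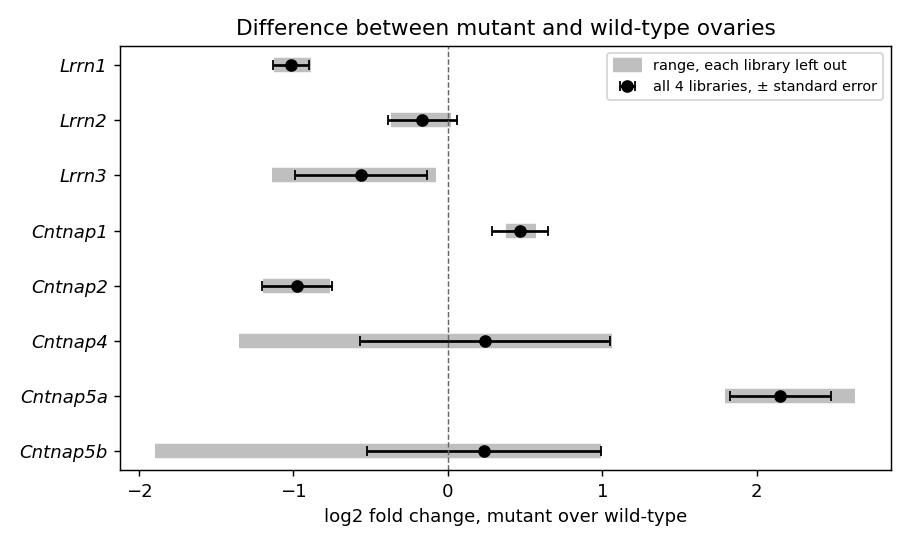
Log2 fold change of mutant over wild-type ovaries (horizontal axis) for the 8 genes that passed the filter; black points and bars give the estimate from all 4 libraries with its standard error, and gray bars the range when each library was left out. Cntnap5a at 2.15 lies farthest from 0, Lrrn1 and Cntnap2 lie near -1.02 and -0.98, and the gray bars of Lrrn2, Cntnap4 and Cntnap5b cross 0.

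Counted over the members, groups did not overlap for 4 of the 8 that passed the filter, with 2 lower and 2 higher in mutant ovaries. Over all 15442 genes tested, 15.1% were lower and 15.8% higher without overlap. In edgeR's quasi-likelihood test, adjusted over all genes by Benjamini-Hochberg, 0 of the 8 members passed an adjusted p of 0.05, as did 0.0583% of all genes (9 genes, of which 0.013% of all genes were higher and 0.0453% lower). At an unadjusted p under 0.05 these numbers were 4 of 8 members and 5.69% of all genes. DESeq2, the tool the study names, passed 2 of the 7 members for which it gave an adjusted p, Lrrn1 and Cntnap5a, against 0.714% of all genes. Without mutant replicate 1 or without mutant replicate 2, edgeR's test also passed 2, the same pair of genes, where 130 of 16049 and 38 of 16080 genes passed in all. Without either wild-type replicate it passed 0 members, where 7 of 15786 and 4 of 15904 genes passed. Since the members were chosen with this contrast known, nothing is read from these counts. The median log2 fold change of the 8 members was 0.035, against -0.00088 over all genes tested. It stood for 4 genes above and 4 below 0 and not for a shared direction, and it moved to -0.73 without mutant replicate 1.

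The make-up of the Cntnap counts differed between the groups. Cntnap2 supplied 48.6% and 54.7% of the Cntnap counts in the wild-type libraries, but 20.8% and 19.7% in the mutant libraries. Its exact 95% intervals were 44.1% to 53.1% and 50.5% to 58.7% in the wild type, and 17.3% to 24.6% and 16.4% to 23.3% in the mutants. Cntnap5a took the opposite course, with 9.68% and 14.9% of the counts in the wild-type libraries and 45.6% and 39.4% in the mutant libraries. Its intervals were 7.22% to 12.6% and 12.2% to 18.1% in the wild type, and 41.2% to 50.1% and 35.3% to 43.7% in the mutants. For both genes, no interval of a mutant library reached that of a wild-type library, and these intervals cover counting error only. Cntnap1 kept a share between 26.0% and 34.7% in all 4 libraries. The sum over the 6 Cntnap genes was 45.4 and 35.8 CPM in mutant against 28.8 and 33.4 CPM in wild-type libraries. These shares restate the differences of Cntnap2 and Cntnap5a on a scale that does not depend on library size.

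**Figure D3:**
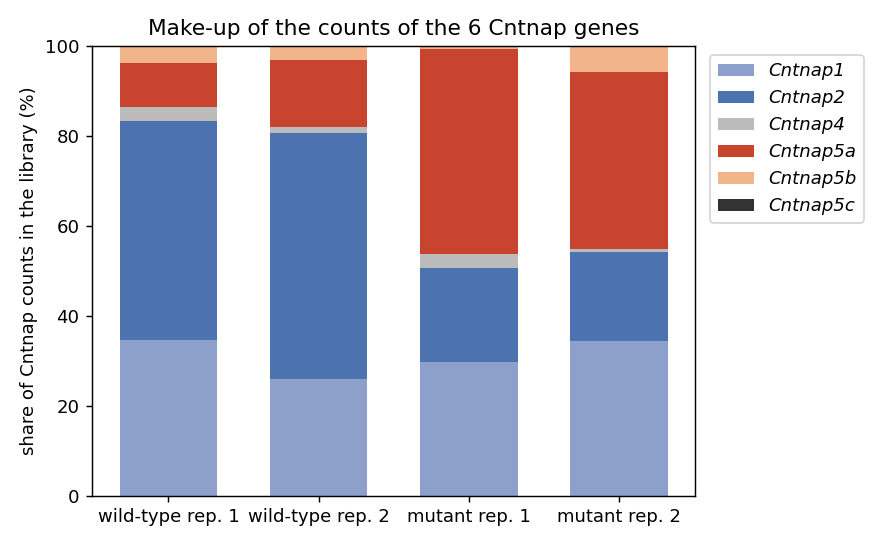
Share of each gene in the counts of the 6 Cntnap genes (vertical axis, %), with a bar for each library. Cntnap2 (dark blue) holds 48.6% and 54.7% in the wild-type libraries and 20.8% and 19.7% in the mutant libraries, while Cntnap5a (red) holds 9.68% and 14.9% against 45.6% and 39.4%.

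To compare the genes with each other, levels were divided by the length of all annotated exons of the gene, as CPM per kilobase. In wild-type ovaries Lrrn1 stood first, at 45.8 ± 5.56 CPM per kilobase (SD, n = 2), or 18.4 times the level of Lrrn2, the next gene. Lrrn2, Cntnap2, Lrrn3 and Cntnap1 followed at 2.48, 2.25, 2.03 and 1.59 CPM per kilobase. The ranges of neighbours in this order overlapped, while Lrrn2 and Cntnap2 each lay above Cntnap1 in both libraries. Cntnap5a came sixth at 0.688 ± 0.275 CPM per kilobase (SD, n = 2), clear of Cntnap1 above it and of Cntnap5b below it at 0.202. Cntnap4 and Cntnap5c closed the order, at 0.110 and 0.0074 CPM per kilobase.

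In mutant ovaries Cntnap5a stood second and Cntnap2 sixth. Lrrn1 remained first, at 22.6 ± 1.63 CPM per kilobase (SD, n = 2), and was 7.35 times the next gene. This was Cntnap5a at 3.08 ± 0.825 CPM per kilobase (SD, n = 2), whose range overlapped that of Lrrn2 at 2.22. Cntnap1 followed at 2.197 and Lrrn3 at 1.39 CPM per kilobase. Cntnap2 came sixth, at 1.15 ± 0.235 CPM per kilobase (SD, n = 2), and its range overlapped that of Lrrn3. In each wild-type library Cntnap2 was above Cntnap5a per kilobase, at 1.95 against 0.494 in replicate 1 and 2.54 against 0.882 in replicate 2. In each mutant library it was below, at 1.31 against 3.66 in replicate 1 and 0.981 against 2.49 in replicate 2.

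**Figure D4:**
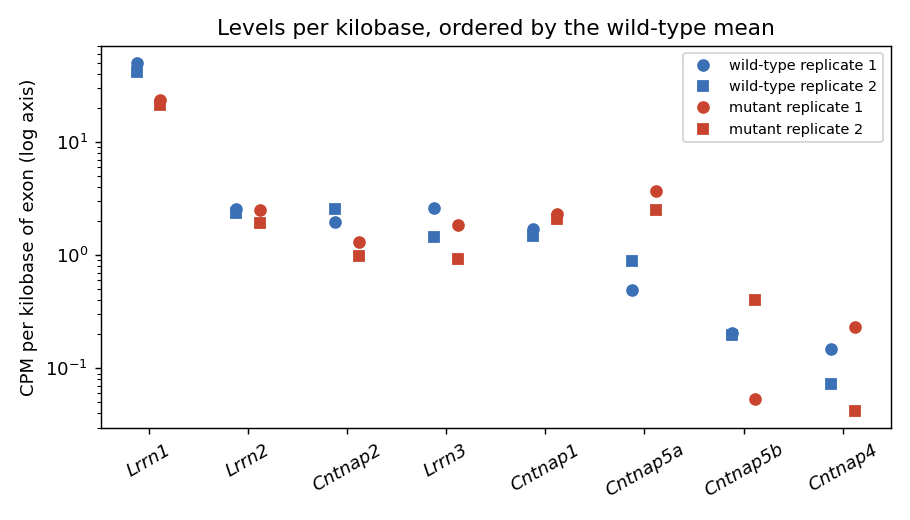
Level per kilobase of exon (CPM per kilobase, log axis) of 8 genes in each library, ordered by the wild-type mean; Cntnap5c, with 0 counts in 3 libraries, is left out. Lrrn1 is highest in every library, and Cntnap5a, at 0.494 and 0.882 in the wild type, lies at 3.66 and 2.49 in the mutants, above Cntnap2.

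None of the genes next to Lrrn1 and Cntnap5a on the chromosome passed edgeR's test. Lrrn1 and Cntnap5a did not pass it with all 4 libraries either, so this does not set the neighbours apart from them. The nearest protein-coding genes were Crbn, which encodes a substrate receptor of a ubiquitin ligase, 729.7 kb on one side of Lrrn1 and Setmar 494.8 kb on the other. Crbn had 62.3 and 61.9 CPM in mutant and 63.8 and 67.4 CPM in wild-type libraries, a difference of -0.078 on the log2 scale (standard error 0.10) with an adjusted p of 1.00 (edgeR). For Setmar the log2 fold change was 0.019 (standard error 0.23), also with an adjusted p of 1.00 (edgeR). Cntnap5a is flanked at a larger distance by Dsel, 3819.8 kb away, and Tsn, 1716.5 kb away. Their log2 fold changes were -0.19 (standard error 0.12) and -0.020 (standard error 0.095), and neither passed (adjusted p = 1.00 for both, edgeR). Dsel had 33.7 and 33.4 CPM in mutant and 35.7 and 41.0 CPM in wild-type libraries. Crbn and Dsel were thus lower in mutant ovaries without overlap, as were 15.1% of all genes, while the groups overlapped for Setmar and Tsn.

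The genes whose pattern over the 4 libraries was most like that of Lrrn1 or Cntnap5a were found by the Euclidean distance between log2 CPM values centred on each gene's mean. With 4 libraries this distance mostly follows the fold change, and it is given as a description. For Lrrn1 they included Hoxd1, a homeobox gene that rested on at most 22 counts in a library, at a distance of 0.108. Tcf21, a transcription factor of gonadal and kidney mesenchyme, was at a distance of 0.135. Tcf21 had 28.0 and 23.3 CPM in mutant and 57.7 and 51.7 CPM in wild-type libraries. For Cntnap5a the distances were larger. They were 0.490 for 5430407P10Rik, which rested on at most 10 counts in a library, 0.617 for Oprk1, the kappa opioid receptor gene, and 0.691 for Pkp1, which encodes a plakophilin of desmosomes. Oprk1 had 15.2 and 15.6 CPM in mutant and 3.60 and 4.25 CPM in wild-type libraries.

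Genes related to the members, or known to work with them, were taken from 5 lists of 80 genes in all, of which 70 were tested. By the quasi-likelihood test of edgeR, 0 of the 70 rose and 0 fell at an adjusted p of 0.05, where 0.0583% of all genes did. At an unadjusted p under 0.05 there were 19 of the 70, against 5.69% of all genes, and DESeq2 passed 0 of the 64 to which it gave an adjusted p. Closest to the members are 3 further genes of the families. Lrrn4 had 47.7 and 36.8 CPM in mutant and 53.0 and 45.4 CPM in wild-type libraries, a difference of -0.22 on the log2 scale (standard error 0.16). Lrrn4cl, named for its likeness to Lrrn4, had a log2 fold change of -0.26 (standard error 0.35). Cntnap3 had between 2 and 8 counts per library and was not tested.

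The list of contactins, which are direct partners of Caspr proteins, and the L1 family included 9 tested genes. Their median log2 fold change was -0.19, with 4 above 0 and 5 below. Without overlap, 1 was higher and 4 were lower in mutant ovaries, against 15.8% and 15.1% of all genes. Cntn4 was the most abundant contactin, at 56.0 ± 7.35 CPM (SD, n = 2) in mutant against 69.8 ± 3.08 CPM (SD, n = 2) in wild-type ovaries. Its log2 fold change of -0.32 (standard error 0.13) did not pass (adjusted p = 0.842, edgeR). Cntn5 had the smallest p of the list, at 2.18 and 1.53 CPM in mutant against 3.25 and 4.48 CPM in wild-type libraries, which gave -1.07 on the log2 scale (standard error 0.36) and an adjusted p of 0.731 (edgeR). Cntn3 was at 0.10 on the log2 scale (standard error 0.29, adjusted p = 1.00, edgeR). The scaffold proteins and channels of axo-glial junctions gave 15 tested genes with a median of -0.044, of which 2 were higher and 4 lower without overlap. Sptbn1, a spectrin, and Epb41l2, a protein 4.1 that ties membrane proteins to the spectrin skeleton, were the most abundant, at log2 fold changes of -0.24 (standard error 0.088) and -0.044 (standard error 0.092). Ank3, which encodes ankyrin G, was at 0.34 (standard error 0.14). Their adjusted p-values in edgeR's test were 0.769, 1.00 and 0.856.

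Of the neurexins and their ligands 15 were tested, with a median of -0.19 and 11 of them below 0. Without overlap, 0 were higher and 6 lower, against 15.8% and 15.1% of all genes. Clstn1, a calsyntenin, and Nlgn2, the neuroligin of inhibitory synapses, were the most abundant, with log2 fold changes of 0.019 (standard error 0.090) and -0.14 (standard error 0.14). Cbln2, a secreted ligand that bridges neurexins to receptors, had the smallest p of the list. It had 1 and 0 counts in mutant against 17 and 13 in wild-type libraries, a ratio of 22.4 with an exact 95% interval from 3.73 to 915 that covers counting error only, and an adjusted p of 0.347 in edgeR's test. Cadm4 was at -0.44 (standard error 0.15, adjusted p = 0.718, edgeR). The list of other leucine-rich-repeat membrane proteins was the largest, with 29 tested genes, a median of 0.013, 15 above and 14 below 0. The median hides differences in both directions, from -1.26 to 1.38 on the log2 scale. Of the 29 genes, 9 were higher and 12 lower without overlap, against 15.8% and 15.1% of all genes. Islr and Flrt2 were both the most abundant of them and those with the smallest p. Flrt2, a ligand of Unc5 receptors, had 92.3 and 91.2 CPM in mutant and 115 and 134 CPM in wild-type libraries, or -0.44 on the log2 scale (standard error 0.11, adjusted p = 0.417, edgeR). Islr was at -0.46 (standard error 0.11, adjusted p = 0.395, edgeR).

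**Figure D5:**
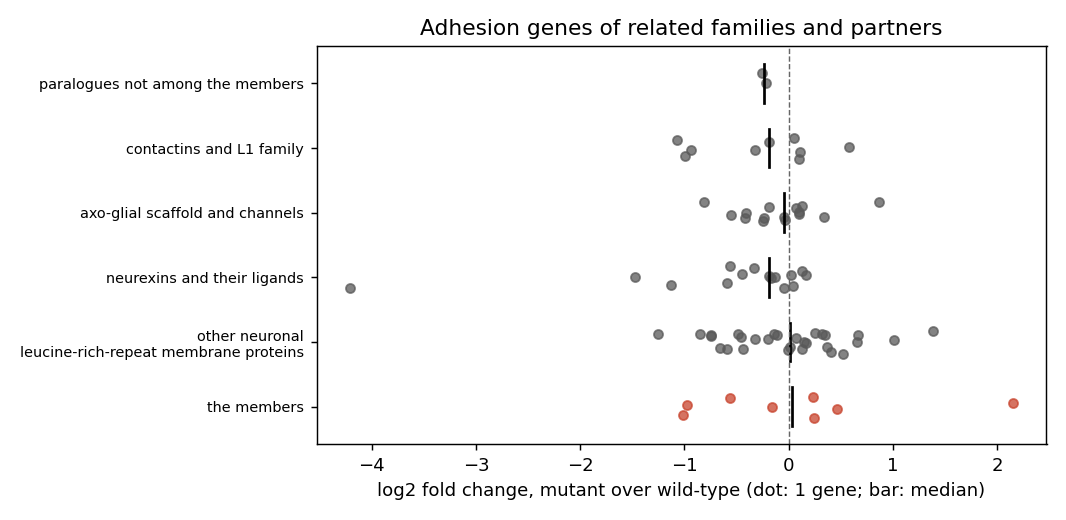
Log2 fold change of mutant over wild-type ovaries (horizontal axis) for the 70 tested genes of the 5 related lists (gray) and the 8 tested members (red); each dot is a gene and each vertical bar a median. The medians of the lists lie between -0.24 and 0.013, Cntnap5a at 2.15 lies to the right of every gene of the lists, and the gray dot far to the left is Cbln2, whose fitted value rests on 1 count in the mutants.

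Because whole ovaries were sequenced, fewer cells of a type and less RNA per cell cannot be told apart. Markers of neurons summed to 28.3 and 15.7 CPM in mutant and 28.0 and 19.4 CPM in wild-type libraries. Of 9 tested neuronal markers 0 passed edgeR's test. Without overlap, 1 (Syt1) was higher and 0 were lower, against 15.8% and 15.1% of all genes. Only 0.0583% of all genes passed this test, so 0 passing in a short list does not show that its genes were unchanged. Glial markers summed to 44.6 and 39.9 CPM in mutant and 61.7 and 41.5 CPM in wild-type libraries. Of 7 tested glial markers 0 passed, 3 were lower and 1 (Gfra3) higher without overlap, against 15.1% and 15.8% of all genes, and Foxd3 was at or under the floor. Stromal markers were lower in the mutants, summing to 423 and 298 CPM against 537 and 508 CPM, and 5 of 7 were lower without overlap (15.1% of all genes were) although 0 of 7 passed (smallest adjusted p = 0.0811, edgeR, for Tcf21). Lrrn1 and Cntnap2 were lower in the same libraries as the stromal markers, and the part of stroma in their difference was not tested. Skeletal muscle markers summed to 33.8 and 5.32 CPM in mutant and 217 and 8.90 CPM in wild-type libraries, and blood markers to 3179 and 872 CPM and 3493 and 1681 CPM. Both lists were higher in replicate 1 of each group, as were the neuronal, glial and stromal sums and the levels of Lrrn1, Lrrn2, Lrrn3, Cntnap1 and Cntnap4, and the part of these cell types in the levels was not tested. Mesonephric markers summed to between 166 and 194 CPM over all libraries, of which Emx2 alone made up between 129 and 152 CPM. Of 7 tested mesonephric markers 0 passed edgeR's test. Without overlap, 1 (Pax8) was higher and 1 (Ret) lower, against 15.8% and 15.1% of all genes. Pax8 had 13.9 and 17.7 CPM in mutant and 9.07 and 9.07 CPM in wild-type libraries. For Ret the levels were 8.71 and 14.3 CPM in mutant and 15.2 and 17.8 CPM in wild-type libraries. Endothelial markers summed to between 421 and 476 CPM over all libraries. Surface epithelium markers summed to 232 and 166 CPM in mutant against 243 and 256 CPM in wild-type libraries. Of 6 tested, 6 had a log2 fold change below 0 and 0 passed edgeR's test. Without overlap, 2 (Upk3b and Krt7) were lower, against 15.1% of all genes, and the part of these cells in the levels was not tested.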

How the data were processed

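RNA-seq libraries from E13.5 mouse ovaries, 2 mutant and 2 wild-type, were analysed. The authors aligned the reads with STAR 2.6.1d to mm9, as the submitters' processing notes name it, and deposited raw counts per gene made with the R function summarizeOverlaps. The annotation and strand setting are not given in the sources used here. All 4 count columns matched a library by genotype and replicate number, and 0 were unused.

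Counts were read into R 4.3.3 and analysed with edgeR 4.0.16 by TMM normalization, the default filterByExpr filter, which kept 15442 of 34682 genes, and quasi-likelihood F-tests. P-values were adjusted by Benjamini-Hochberg, with a threshold of 0.05. The fit was made over all 4 libraries with group as the only factor. The standard error is the size of the log2 fold change over the square root of F. With 2 libraries against 2 an exact permutation test cannot give a p below 0.333. The labels do not say that the replicates came from separate animals, so p-values measure only the spread between these libraries. Replicates were not the same library deposited again (chi-square per degree of freedom 11.8 and 13.2). DESeq2 1.42.0, other normalizations and filters, the replicate block and leaving out each library were alternatives. Where that left a group with 1 library, this library was assumed to vary like the others. The fit was also run on simulated counts with the same spread setting for every gene and no replicate effect. That run checked the code and does not show how the fit behaves under the replicate pattern of these libraries.

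The members and lists were chosen with earlier results of these data known. The genes named were the members, Sall1, Wt1, the paralogues, the 2 genes with the highest mean CPM and the 2 with the smallest p of each list, the 3 nearest in pattern (prior count 2 on the log2 CPM), and the chromosomal neighbours. Some cell type markers were named as well. Some values under this rule are not reported here. The list genes Epb41l2 and Epb41l3 were matched through older symbols. Gene models and sequences came from GENCODE M1 on NCBIM37, whose annotation may differ from that behind the counts. Coding sequences were aligned with Biopython 1.88.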

Additional observations from a re-analysis of the deposited data

How the results depend on the processing

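The number of genes called among all genes tested depended on the model. The 9 genes became 105 with DESeq2, 28 with no filter, 19 with at least 10 counts in every library and 385 with the replicate block, and between 4 and 130 when each library was left out (130 without mutant replicate 1, 38 without mutant replicate 2, 7 without wild-type replicate 1 and 4 without wild-type replicate 2). With RLE or upper-quartile scaling there were 10. Of the members, 0 were called, and 2 (Lrrn1 and Cntnap5a) with DESeq2 and with no filter, 1 (Lrrn1) with at least 10 counts in every library, and 3 (Lrrn1, Cntnap2 and Cntnap5a) with the replicate block. The range was 0 to 2 when each library was left out. Of the related lists, 0 genes were called under every alternative except the replicate block, which gave 5 (Cbln2, Elfn1, Elfn2, Flrt2 and Islr). The cause of these changes was not tested. The deviations from the group means had a correlation of 0.481 across genes between libraries that share a replicate number. In the column labels, libraries that share a replicate number also carry consecutive numbers after the letter L. The labels do not say that the replicate number marks a shared litter or day, so the pairing is not established. When each library was left out, the log2 fold changes ranged over -1.13 to -0.89 for Lrrn1, -1.196 to -0.76 for Cntnap2, 0.38 to 0.57 for Cntnap1 and 1.79 to 2.64 for Cntnap5a, and these 4 genes had the same sign under all 10 alternatives. Lrrn3 stayed below 0 (-1.14 to -0.076), while Lrrn2, Cntnap4 and Cntnap5b changed sign when a library was left out. The wild-type order per kilobase was the same for all 9 genes with the longest transcript as the length, and in mutant ovaries Lrrn2 and Cntnap1 changed places. Depth limits Cntnap4, Cntnap5b and Cntnap5c, which had at most 31 counts in a library.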
